A study of Mus musculus with 10 samples.

Results

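Regulatory T cells are the CD4+ T cells that hold other T cells in check, and 9 genes by which they are commonly recognized were followed here in tumor-draining lymph nodes (TDLNs): Foxp3, Ikzf2, Ikzf4, Ctla4, Nrp1, Gpr83, Izumo1r, Lrrc32 and Capg. The genes were taken by name from 33585 genes with a value in every library, and all 9 reached a mean of at least 1 FPKM, as did 13334 genes in all. FPKM scales the sequenced fragments of a gene to the length of its transcript and to the number of mapped fragments in the library. The RNA came from whole lymph nodes of BALB/c mice that carried 4T1 tumors, a mouse mammary carcinoma line placed in the mammary fat pad. Every tumor was treated by microwave ablation (MWA), a local therapy that destroys it by heat. The MWA group (5 mice) then received the vehicle PBS, and the MWA+2DG group (5 mice) received 2-deoxy-D-glucose (2DG), a glucose analogue that inhibits glycolysis. Nodes were taken on day 15, with 1 library per mouse, and no unablated or 2DG-only nodes were compared here. The comparison asks whether glycolysis inhibition after ablation changed regulatory T cell transcripts in the node, in themselves and relative to the T cell transcripts Cd3e and Cd4.

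Foxp3 is the transcription factor that defines the regulatory T cell lineage and keeps its suppressive program. Helios (Ikzf2) and Eos (Ikzf4) are zinc finger factors of the Ikaros family that work with it. On the cell surface, CTLA-4 removes costimulatory ligands from antigen-presenting cells, and GARP (Lrrc32) holds latent TGF-beta. Interleukin-2, signaling through STAT5, is needed for these cells to survive. Several of these genes are made by other cells too: CTLA-4 and folate receptor 4 (Izumo1r) by other activated or follicular helper T cells, neuropilin-1 (Nrp1) by endothelium and plasmacytoid dendritic cells, GARP by platelets and endothelium, and the actin-capping protein Capg by macrophages and dendritic cells.

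Sequence upstream of 2 of the genes is shown because Foxp3 and Gpr83 followed each other closely between libraries. The promoter table of RefSeq (GRCm38.p6), matched by symbol, had entries for 6 of the 9 genes and not for Ikzf2, Ikzf4 and Lrrc32. The 250 bases before each start were searched on both strands for 4 motifs. The forkhead motif was spelled TGTTTAC, the STAT motif TTCNNNGAA and the RUNX motif TGTGGT, and the TATA box was spelled TATAAA. None of the matches overlapped another. Capitals mark a match. The first line is the stretch around the TATA match before the first of 2 Foxp3 start sites (chrX:7579631-7579660, plus strand), the second is the window before the other Foxp3 start site (chrX:7580233-7580482, plus strand), and the third is the window before the Gpr83 start (chr9:14859960-14860209, plus strand).
Foxp3, start site 1: tttttcttctcggTATAAAagcaaagttgt
Foxp3, start site 2: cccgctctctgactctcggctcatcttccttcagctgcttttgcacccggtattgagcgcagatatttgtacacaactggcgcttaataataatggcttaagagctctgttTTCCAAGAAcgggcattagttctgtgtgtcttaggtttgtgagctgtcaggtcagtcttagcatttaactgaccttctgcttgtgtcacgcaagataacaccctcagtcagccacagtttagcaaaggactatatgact
Gpr83, start site 1: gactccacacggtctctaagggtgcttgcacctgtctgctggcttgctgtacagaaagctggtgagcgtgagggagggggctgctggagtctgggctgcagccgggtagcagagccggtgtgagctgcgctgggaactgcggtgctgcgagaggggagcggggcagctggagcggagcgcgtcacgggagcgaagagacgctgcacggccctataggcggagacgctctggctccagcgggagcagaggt
The STAT letters stood 139 bases before the second Foxp3 start and are found in 7.02% of all 32851 promoter windows. The TATA letters stood 32 bases before the first Foxp3 start and are found in 12.4% of windows. Among the 6 genes the RUNX letters occurred only in the Izumo1r window, 127 bases before its start on the opposite strand, and are found in 14.0% of windows. The forkhead letters were in none of the windows of these 6 genes, against 3.17% of all windows, and the Gpr83 window held none of the 4 motifs. These are letters in a window and not measured binding sites.

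The 10 libraries listed between 24289 and 25184 genes above 0. Read totals are not part of FPKM, so the depth behind each value is unknown and the values carry no counting interval. In both groups, replicates 1 and 2 differed from replicates 3 to 5 for some genes, a split seen in the data and not given by the labels. Among the members, Ctla4 (11.5 to 16.5 against 7.06 to 10.3 FPKM) and Ikzf2 (2.55 to 3.42 against 1.65 to 2.40 FPKM) did not overlap between these sets. Foxp3 and the other members did overlap, and no measure of the split over all genes is given here. Comparisons are also given within these 2 sets where named. Because the sets were chosen from these same data, p-values within them are descriptions and cannot be taken at face value. MWA replicate 1 stood apart by its neutrophil transcripts, with a summed level of the 10 markers of 100 FPKM against 12.2 to 26.4 FPKM in the other 9 libraries. The nodes expressed the defining markers of their lymphocytes: all 20 T cell genes and all 10 B cell genes of the lists passed the filter. Because whole nodes were sequenced, fewer cells of a type and less RNA per cell cannot be told apart.

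None of the 9 regulatory T cell genes passed the test between the MWA+2DG and MWA groups by its level in the node. The study's rule calls a gene that has a limma P under 0.05 and a log2 fold change beyond 0.25, and it called 0 of the 9 genes, against 376 of all 13334 genes tested (2.82%, made up of 0.952% higher and 1.87% lower with 2DG). Fitted without a covariate, limma gave 0 of the 9 genes an unadjusted P under 0.05, as did its variant with an intensity trend. After Benjamini-Hochberg adjustment over all genes, limma called 0 genes of the whole table (0.00%, and 1 gene without MWA replicate 2), while 567 genes had an unadjusted P under 0.05. Of the 9 log2 fold changes 6 were positive, with a median of 0.07, and over all genes 52.6% were positive with a median of 0.01. Fold changes are on the log2(FPKM + 1) scale, which understates changes of the low genes. At this group size the smallest two-sided exact permutation p is 0.00794 (252 regroupings).

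**Figure D1:**
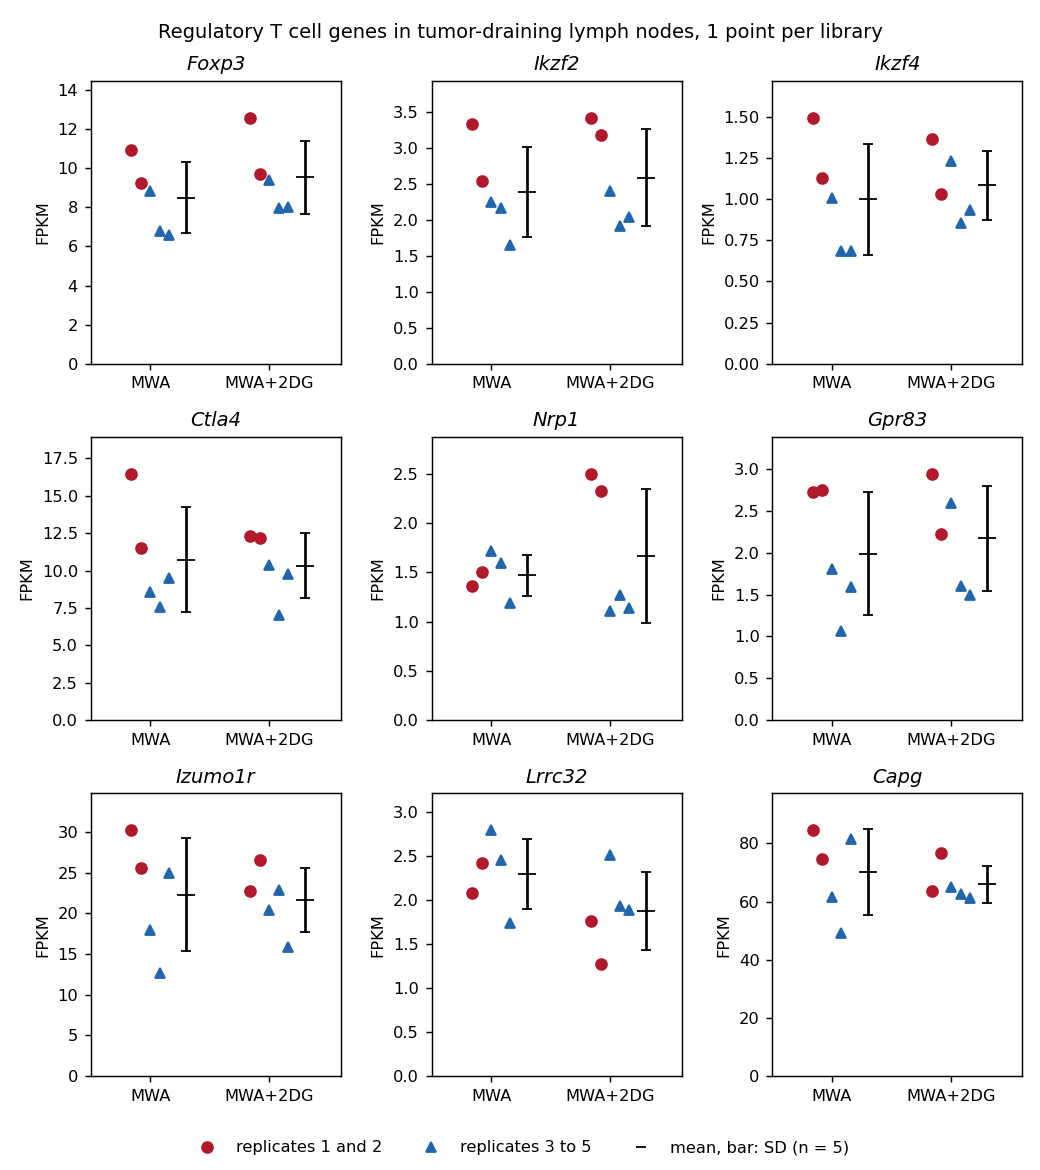
FPKM of the 9 regulatory T cell genes in each of the 10 libraries, by group (horizontal axis), with circles for replicates 1 and 2, triangles for replicates 3 to 5, and the mean with its SD (n = 5) beside the points. The groups overlap for every gene; Nrp1 was above 2 FPKM in 2 MWA+2DG libraries alone, and Foxp3 was 6.60 to 9.41 FPKM in replicates 3 to 5 and 9.26 to 12.6 FPKM in replicates 1 and 2.

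Foxp3 was 11.0, 9.26, 8.86, 6.79 and 6.60 FPKM in MWA replicates 1 to 5, and 12.6, 9.71, 9.41, 7.97 and 8.03 FPKM in MWA+2DG replicates 1 to 5. The groups overlapped, with 1 MWA+2DG library above all MWA libraries. The mean was 8.49 ± 1.82 FPKM (SD, n = 5) with MWA and 9.54 ± 1.87 FPKM (SD, n = 5) with MWA+2DG, and the log2 fold change was 0.16 (SE 0.15, 95% interval -0.18 to 0.49, exact permutation p = 0.357, and 0.183 within the replicate sets). The interval holds no change as well as a higher level by 0.49 and a lower level by 0.18 on the log2 scale. The group difference had one sign in both sets of replicates, at 0.12 in replicates 1 and 2 and 0.18 in replicates 3 to 5.

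Exons of Foxp3 itself overlap exons of other genes, and whether fragments were shared between them is unknown. In the GENCODE vM21 annotation (GRCm38), 18.6% of its exonic bases also lie in exons of Flicr, a long noncoding RNA on the same strand, and 12.9% in exons of Ccdc22 on the opposite strand. Flicr was at 0.195 to 0.519 FPKM and Ccdc22 at 5.18 to 8.37 FPKM. Gm36995, a transcript opposite to Foxp3 that covers 8.15% of its exonic bases, was at 1.11 to 3.45 FPKM. Ppp1r3f, also on the opposite strand, covers 5.81% and was at 1.05 to 1.57 FPKM. The kit marked strand, but whether strand was used when fragments were assigned is not stated. Exons of 3 further members (Ikzf2, Ikzf4 and Nrp1) share at most 1.24% of their bases with another gene, and those of the remaining 5 share none.

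Of the Ikaros family factors, Ikzf2 followed the order of libraries of Foxp3 within each group, and Ikzf4 departed from it in some replicates. Ikzf2 was 3.34, 2.55, 2.25, 2.17 and 1.65 FPKM in MWA replicates 1 to 5 and 3.42, 3.18, 2.40, 1.92 and 2.04 FPKM in MWA+2DG replicates 1 to 5, so the groups overlapped. Its log2 fold change was 0.08 (95% interval -0.26 to 0.42, exact permutation p = 0.627). Ikzf4, the lowest of the 9 genes, was 1.49, 1.12, 1.01, 0.685 and 0.686 FPKM with MWA and 1.36, 1.03, 1.23, 0.856 and 0.931 FPKM with MWA+2DG. No MWA+2DG library of Ikzf4 was outside the MWA range, and its log2 fold change was 0.07 (95% interval -0.19 to 0.33, exact permutation p = 0.587).

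Among the surface proteins, Ctla4 was 16.5, 11.5, 8.59, 7.54 and 9.51 FPKM in MWA replicates 1 to 5, and 12.3, 12.2, 10.3, 7.06 and 9.77 FPKM in MWA+2DG replicates 1 to 5. Its highest value belonged to MWA replicate 1, the library with the high neutrophil transcripts. The log2 fold change was -0.02 (95% interval -0.46 to 0.41, exact permutation p = 0.944) with all libraries and 0.13 without that one. Gpr83, an orphan G protein-coupled receptor enriched in regulatory T cells, was 2.73, 2.75, 1.81, 1.07 and 1.59 FPKM with MWA and 2.94, 2.23, 2.60, 1.60 and 1.49 FPKM with MWA+2DG, and its log2 fold change was 0.10 (95% interval -0.31 to 0.51, exact permutation p = 0.635). Izumo1r, a folate receptor family protein at the T cell surface, ranged from 12.7 to 30.2 FPKM with MWA and from 15.8 to 26.5 FPKM with MWA+2DG. Its means were 22.3 ± 6.93 and 21.7 ± 3.94 FPKM (SD, n = 5), and its log2 fold change was 0.00 (95% interval -0.47 to 0.48, exact permutation p = 1). The sign of Ctla4 turned after rescaling to a common sum and that of Izumo1r under median ratio scaling, and both turned without some single libraries, so no direction is given for either.

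Nrp1, a coreceptor for semaphorins and VEGF, had a pattern of its own. It was 1.36, 1.50, 1.72, 1.59 and 1.19 FPKM in MWA replicates 1 to 5, and 2.50, 2.32, 1.11, 1.27 and 1.14 FPKM in MWA+2DG replicates 1 to 5. Thus 2 MWA+2DG libraries lay above every MWA library and 2 lay below every one. The group difference was 0.49 on the log2 scale within replicates 1 and 2 and -0.20 within replicates 3 to 5, and over all libraries 0.08 (95% interval -0.26 to 0.42, exact permutation p = 0.619). The difference between the sets was -0.68 (SE 0.16), but limma, fitted over all 13334 genes for this interaction, gave an adjusted p of 0.9999, and 0 genes had an adjusted p under 0.05 there, with 341 at an unadjusted P under 0.05. Blood endothelium and plasmacytoid dendritic cells also make Nrp1. Summed markers of blood endothelium were 153 and 163 FPKM in the 2 MWA+2DG libraries with high Nrp1, 124 to 131 FPKM in the other 3 of that group and 162 and 157 FPKM in MWA replicates 1 and 2. The largest parts of this sum were Plvap (means 55.6 FPKM with MWA and 54.1 FPKM with MWA+2DG) and Pecam1 (35.8 and 37.2 FPKM). For plasmacytoid dendritic cells, Bst2, which interferon induces, and Spib, which B cells also make, carried 90.2% of the marker sum, and the other 6 markers summed to 31.5 and 38.2 FPKM in the 2 libraries with high Nrp1, 20.7 to 27.8 FPKM in the other 3 of that group and 27.4 to 37.8 FPKM with MWA. The part of either cell type in the Nrp1 level was not tested.

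Lrrc32 was the member furthest below 0 in its fold change. It was 2.08, 2.42, 2.79, 2.45 and 1.74 FPKM in MWA replicates 1 to 5, and 1.76, 1.27, 2.51, 1.93 and 1.89 FPKM in MWA+2DG replicates 1 to 5. The groups overlapped, and 1 MWA+2DG library lay below all MWA libraries. The means were 2.30 ± 0.402 and 1.87 ± 0.443 FPKM (SD, n = 5), which gave a log2 difference of -0.20 (SE 0.12, 95% interval -0.47 to 0.07, exact permutation p = 0.159, and 0.15 within the replicate sets). The difference was -0.37 in replicates 1 and 2 and -0.09 in replicates 3 to 5. The study's rule called it without MWA replicate 5 (-0.27) and without MWA+2DG replicate 3 (-0.28), and in none of the other 8 fits that left out 1 library. Blood endothelium, another source of GARP, had summed markers of 120 to 162 FPKM with MWA and 124 to 163 FPKM with MWA+2DG. Plvap and Pecam1 were the largest parts of this sum. Of the 8 platelet markers 5 were below 1 FPKM on average, with Gp6 at 0 in every library. The means with MWA and MWA+2DG were 9.48 and 9.84 FPKM for Itgb3, 3.20 and 3.68 FPKM for Pf4, and 2.85 and 2.70 FPKM for Itga2b. The part of endothelium or platelets in the Lrrc32 level was not tested.

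Capg, the most abundant member, was 84.5, 74.7, 61.7, 49.1 and 81.4 FPKM in MWA replicates 1 to 5, and 63.8, 76.8, 65.0, 62.7 and 61.2 FPKM in MWA+2DG replicates 1 to 5. All MWA+2DG values lay inside the MWA range. The log2 fold change was -0.07 (95% interval -0.38 to 0.25, exact permutation p = 0.683). Among the 12 macrophage markers Lyz2, which neutrophils also make, carried 86.7% of the sum and ranged from 1439 to 2244 FPKM with MWA and from 917 to 1502 FPKM with MWA+2DG. The other 11 markers summed to 198 to 295 FPKM and 176 to 240 FPKM. Of the 10 markers that passed the filter, 2 were lower by the study's rule, Csf1r and Lyz2, against 1.87% of all genes. The other 2, Vsig4 and Cd163, were below 1 FPKM. Summed markers of dendritic cells, another source of Capg, were 148 to 304 FPKM with MWA and 186 to 262 FPKM with MWA+2DG. Ccr7, Fscn1 and Ccl22 were the largest parts of that sum. The part of macrophages or dendritic cells in the Capg level was not tested.

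Ordered by mean FPKM over all 10 libraries, the genes ran from Capg (68.1) and Izumo1r (22.0) through Ctla4 (10.5) and Foxp3 (9.02) to Ikzf2 (2.49), Lrrc32 (2.08), Gpr83 (2.08), Nrp1 (1.57) and Ikzf4 (1.04). The ranges over libraries overlapped between each gene and the next below Capg except between Foxp3 (6.60 to 12.6 FPKM) and Ikzf2 (1.65 to 3.42 FPKM). Capg did not overlap with Izumo1r.

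Relative to T cell transcripts, all 9 genes were lower on average with 2DG, but so was the typical gene. Cd3e, a chain of the T cell receptor complex, was 35.7, 29.6, 26.0, 24.2 and 28.4 FPKM in MWA replicates 1 to 5 and 38.8, 36.2, 33.1, 33.0 and 26.4 FPKM in MWA+2DG replicates 1 to 5. The log2 fold change of Cd3e was 0.21 (exact permutation p = 0.127, and 0.05 within the replicate sets). Cd4, the coreceptor of helper and regulatory T cells, was 34.8, 30.8, 30.4, 26.2 and 24.5 FPKM with MWA and 36.2, 35.8, 34.0, 37.5 and 29.3 FPKM with MWA+2DG, and its log2 fold change was 0.23 (exact permutation p = 0.0794, and 0.05 within the sets). Neither passed the study's rule, and a ratio to either carries its difference into every gene. The median log2 fold change relative to Cd3e was -0.14 over the 9 genes and -0.21 over all genes tested, and relative to Cd4 it was -0.16 and -0.23. In both comparisons 5 of the 9 genes lay above the median of all genes and 4 below it. Each ratio moves all genes by the same amount. Their ranks are therefore the same in both ratios and in FPKM itself, and the 2 ratios are not separate evidence on rank. The fixed addition of 1 FPKM draws the ratios of low genes toward the opposite of the reference's own change. On plain ratios of FPKM all 9 genes were again lower, with medians of -0.12 and -0.14.

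**Figure D2:**
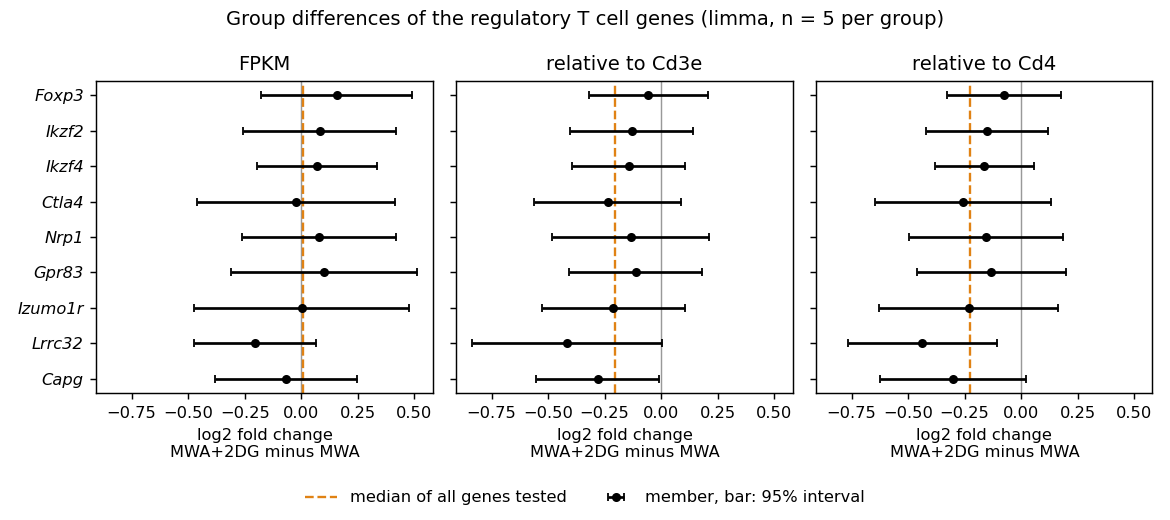
Log2 fold change (MWA+2DG minus MWA, horizontal axis) of each regulatory T cell gene on log2(FPKM + 1), in itself and relative to Cd3e and Cd4; points are limma estimates, bars 95% intervals (n = 5 per group), and the dashed line is the median of all genes tested. All 9 points lie below 0 in both ratios, on both sides of the dashed lines at -0.21 and -0.23, and only the intervals of Capg (Cd3e) and Lrrc32 (Cd4) leave out 0.

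Per 100 FPKM of Cd3e, Foxp3 was 30.7, 31.3, 34.1, 28.1 and 23.2 FPKM in MWA replicates 1 to 5 and 32.4, 26.9, 28.4, 24.2 and 30.5 FPKM in MWA+2DG replicates 1 to 5. All MWA+2DG values lay within the MWA range, and the means were 29.5 ± 4.10 and 28.5 ± 3.19 (SD, n = 5). Its log2 fold change relative to Cd3e was -0.06 (95% interval -0.32 to 0.21, exact permutation p = 0.611), which is less negative than that of 89.9% of all genes. Per 100 FPKM of Cd4, Foxp3 averaged 28.7 ± 2.29 and 27.7 ± 4.77 FPKM (SD, n = 5), and its log2 fold change was -0.08 (95% interval -0.33 to 0.18, exact permutation p = 0.556). The lowest of these values was 21.3 in MWA+2DG replicate 4, without which the fold change was 0.01.

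The study's rule called 1 of the 9 genes relative to Cd3e, against 18.7% of all genes lower with 2DG by the same rule, and 1 of the 9 relative to Cd4, against 26.3%. With 9 genes, 1 call is near these backgrounds and is not a result about the members. limma called 0 genes (0.00%) after adjustment in either ratio, with 2590 and 4055 genes at an unadjusted P under 0.05, and the smallest adjusted p of any gene was 0.239 and 0.146. These counts rest on MWA replicate 1, which had the highest Cd3e and Cd4 of its group: without it 507 genes relative to Cd3e and 2151 relative to Cd4 had an adjusted p under 0.05.

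Relative to Cd4 the called gene was Lrrc32. Per 100 FPKM of Cd4 it was 5.98, 7.86, 9.17, 9.36 and 7.08 FPKM in MWA replicates 1 to 5 and 4.86, 3.55, 7.38, 5.15 and 6.46 FPKM in MWA+2DG replicates 1 to 5, so 3 of 5 MWA+2DG libraries were below all MWA libraries. The log2 fold change was -0.44 (SE 0.15, 95% interval -0.77 to -0.11, exact permutation p = 0.0397, and 0.0167 within the sets, the smallest that 120 regroupings within sets can give). limma's Benjamini-Hochberg adjusted p was 0.146, and 0.045 without MWA replicate 1. The study's rule called Lrrc32 relative to Cd4 in all 10 fits that left out 1 library, with fold changes from -0.52 to -0.34. Of all genes tested, 6.71% were lower than Lrrc32, a rank that does not depend on the reference. Relative to Cd3e it averaged 8.20 ± 2.25 and 5.73 ± 1.72 FPKM per 100 FPKM (SD, n = 5), and its log2 fold change was -0.42 (95% interval -0.84 to 0.00, exact permutation p = 0.0952, and 0.05 within the sets), and was not called.

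**Figure D3:**
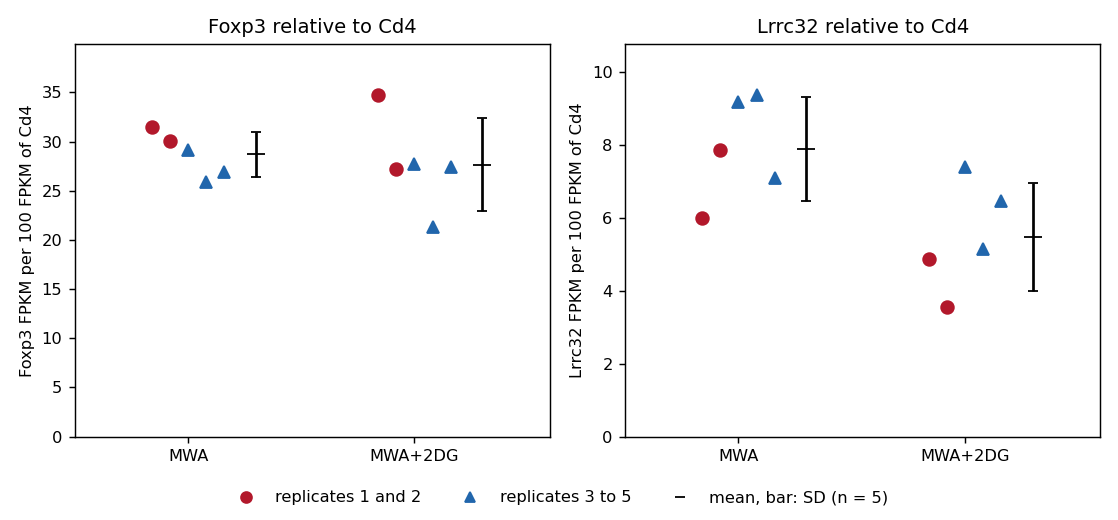
Foxp3 and Lrrc32 in FPKM per 100 FPKM of Cd4 of the same library (vertical axis, from 0), by group, with circles for replicates 1 and 2, triangles for replicates 3 to 5, and the mean with its SD (n = 5) beside the points. Foxp3 overlaps between the groups (28.7 ± 2.29 and 27.7 ± 4.77), and 3 MWA+2DG libraries of Lrrc32 lie below every MWA library.

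Relative to Cd3e the called gene was Capg. It was 237, 252, 238, 203 and 287 FPKM per 100 FPKM of Cd3e in MWA replicates 1 to 5 and 164, 212, 196, 190 and 232 in MWA+2DG replicates 1 to 5, with 3 MWA+2DG libraries below all MWA libraries. The log2 fold change was -0.28 (95% interval -0.55 to -0.01, exact permutation p = 0.0397, and 0.05 within the sets). Its adjusted p from limma was 0.253. The call was lost in 8 of the 10 fits that left out 1 library, namely MWA replicates 1, 2, 3 and 5 and MWA+2DG replicates 1, 2, 3 and 4, where the fold change ran from -0.31 to -0.22. With 26.0% of all genes lower still, Capg stood nearer to the typical gene than Lrrc32 did. Relative to Cd4 its log2 fold change was -0.30 (exact permutation p = 0.0794).

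The other ratios were not called. Relative to Cd3e, Ctla4 averaged 36.5 ± 6.06 FPKM per 100 FPKM with MWA and 31.0 ± 5.84 with MWA+2DG (SD, n = 5, log2 fold change -0.24, 95% interval -0.56 to 0.09, exact permutation p = 0.143). Izumo1r averaged 76.2 ± 15.2 and 64.6 ± 6.38 (log2 fold change -0.21, 95% interval -0.53 to 0.11, exact permutation p = 0.167 for n = 5 per group), and it was called once MWA replicate 4, its lowest library, was left out (-0.33). Ikzf2, Ikzf4, Nrp1 and Gpr83 lay between -0.14 and -0.11 relative to Cd3e and between -0.16 and -0.13 relative to Cd4, and 71.3% to 79.9% of all genes were lower than each of them.

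The lists of the wider regulatory T cell pathway held 82 tested entries, of which 3 were called, near the 2.82% of all genes. Of 10 tested genes of the interleukin-2 receptor and STAT5, 0 were called, 9 were positive and the median log2 fold change was 0.08. Il2ra, which encodes the high-affinity receptor chain CD25, was 6.06 ± 1.87 FPKM with MWA and 6.81 ± 1.79 FPKM with MWA+2DG (SD, n = 5, log2 fold change 0.15, exact permutation p = 0.484). It was added to the named genes after its values were seen. Bcl2, a survival factor, had the smallest limma P of the list, with 6.05 and 7.17 FPKM (log2 fold change 0.21, exact permutation p = 0.127 for n = 5 per group). Of 22 transcription factors that partner with or regulate Foxp3, 1 was called: Satb1, a chromatin organizer that regulatory T cells keep low, was 9.23 ± 1.18 and 11.8 ± 1.18 FPKM (SD, n = 5, log2 fold change 0.33, exact permutation p = 0.0159), with 4 of 5 MWA+2DG libraries above all MWA libraries. The list's median was 0.06, against 0.01 over all genes.

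Of 12 tested suppressor effector and inhibitory genes, 0 were higher and 1 was lower, with a median of 0.06. Nt5e, the CD73 ectoenzyme that makes adenosine, was 3.11 ± 0.515 and 2.30 ± 0.396 FPKM (SD, n = 5, log2 fold change -0.32, exact permutation p = 0.0317), and 3 of 5 MWA+2DG libraries lay below all MWA libraries. Il10, the suppressive cytokine, was below the filter at 0.244 to 1.08 FPKM. Of 12 tested effector surface genes 0 were called (median -0.01). Of 11 tested genes of TGF-beta activation and SMAD signaling 0 were called (median 0.05); Furin, a protease that cleaves the TGF-beta precursor, was at 4.99 and 5.84 FPKM (log2 fold change 0.19, exact permutation p = 0.0238 for n = 5 per group). Tgfb1, whose latent product GARP binds, was at 29.0 and 29.4 FPKM; it too was added after its values were seen.

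Among 9 genes for CTLA-4 ligands and trafficking 1 was called, Trat1, a transmembrane adaptor that stabilizes T cell receptor and CTLA-4 transport, at 5.95 ± 0.904 and 7.90 ± 1.31 FPKM (SD, n = 5, log2 fold change 0.35, exact permutation p = 0.0317). The list's median was 0.03. Of 6 tested neuropilin partners 0 were called (median 0.07), and Sema4a, a semaphorin ligand of Nrp1, was at 11.7 and 13.9 FPKM (log2 fold change 0.24, exact permutation p = 0.0556 for n = 5 per group). Every called gene of these lists failed adjustment over all genes, with limma adjusted p-values of 0.995.

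Beside these, the T cell list had 5 of 20 genes higher, against 0.952% of all genes (among them Cd8a, Tcf7, Lef1 and Themis, at 0.26 to 0.31 on the log2 scale), all 20 positive and a median of 0.18. All 10 B cell genes were negative and 0 were called (median -0.07; Ms4a1 -0.18). The dendritic cell list had 1 of 12 genes lower (Clec10a, -0.38, list median -0.02), against 1.87% of all genes. The macrophage median was -0.12 over 10 tested genes. Of 5 tested neutrophil genes 2 were lower, S100a8 and S100a9, against 1.87% of all genes. S100a8 was 7.08 ± 8.29 FPKM with MWA and 1.60 ± 1.59 FPKM with MWA+2DG, and S100a9 was 16.8 ± 16.9 and 4.31 ± 3.68 FPKM (SD, n = 5). MWA replicate 1, with its high neutrophil transcripts, is part of the MWA means. The neutrophil median of -1.03 was the value of Ngp, at 2.30 ± 4.18 FPKM with MWA and 0.0266 ± 0.0395 FPKM with MWA+2DG (SD, n = 5). Ngp reached the filter through its MWA values alone, so this median is not a result about the list. No gene was called for plasmacytoid dendritic cells (Siglech -0.49), blood endothelium (Egfl7 -0.14), lymphatic endothelium (Pdpn -0.15), fibroblastic stroma (Ccl19 -0.19) or platelets (Pf4 0.14), whose medians ran from -0.05 to 0.06.

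Between libraries, the 9 genes did not vary as 1 block. After subtraction of the group means, the Pearson correlation with Foxp3 over the 10 libraries was 0.94 for Ikzf4, 0.91 for Ikzf2, 0.88 for Gpr83 and 0.79 for Ctla4, against a median of 0.29 over all genes. Ikzf4 ranked 6 among 13333 genes by this measure, Ikzf2 ranked 50 and Gpr83 ranked 113. Nrp1 (0.54), Izumo1r (0.52), Capg (0.37) and Lrrc32 (0.02) were further down the list. Cd3e and Cd4 had correlations of 0.76 and 0.76 with Foxp3. The 5 genes most like Foxp3 were Fam129a, Bud13, Tmem150c, Donson and Cyth3, at 0.95 to 0.96.

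These correlations are descriptions over 10 libraries that fall into 2 sets, and the sets carry part of them. Within the 6 libraries of replicates 3 to 5, Ikzf4 (0.97), Gpr83 (0.80) and Ikzf2 (0.73) still followed Foxp3, whereas Ctla4 was at 0.33. Group means were not subtracted in these 6 libraries, so the group difference is part of these values. With group and set means subtracted over 10 libraries, Ikzf4 was at 0.97, Gpr83 at 0.72, Ikzf2 at 0.75 and Ctla4 at 0.39. Lrrc32 was at 0.54 with Foxp3 in those 6 libraries and at 0.86 with Ikzf2. With group and set means subtracted these were 0.71 and 0.61. Over the 6 pairs among Foxp3, Ikzf2, Ikzf4 and Gpr83 the correlation ran from 0.74 to 0.94 in 10 libraries and from 0.40 to 0.97 in replicates 3 to 5. It ran from 0.31 to 0.97 with group and set means subtracted. Ctla4 was at 0.79 to 0.83 with these 4 genes in 10 libraries, so those values do not set it apart from them. In replicates 3 to 5 Ctla4 was at 0.13 to 0.60 with them. Izumo1r and Capg followed each other instead, at 0.93 in 10 libraries and 0.88 in replicates 3 to 5. Izumo1r and Gpr83 are neighbors on chromosome 9 and had a correlation of 0.72 in 10 libraries and 0.53 in replicates 3 to 5.

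**Figure D4:**
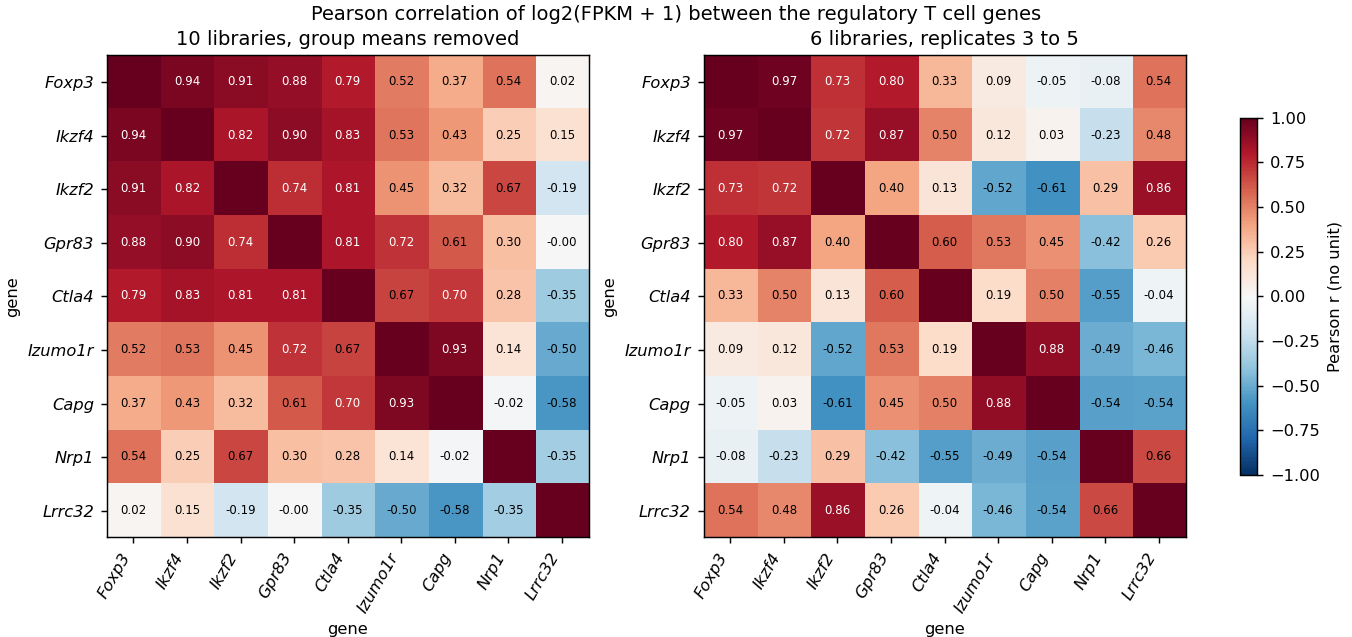
Pearson correlation of log2(FPKM + 1) between each pair of regulatory T cell genes, colored from -1 to 1. On the left group means were subtracted over 10 libraries. The right panel shows the 6 libraries of replicates 3 to 5 without that subtraction. On the left Foxp3, Ikzf4, Ikzf2 and Gpr83 are positive with each other (0.74 to 0.94), and Ctla4 is with each of them (0.79 to 0.83). On the right these ranges are 0.40 to 0.97 and 0.13 to 0.60. Izumo1r and Capg form a pair (0.93 on the left), and Lrrc32 is negative with both of them in both panels.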

How the data were processed

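Poly(A) RNA of whole TDLNs was sequenced as paired-end libraries with molecular identifiers and strand-marking dUTP chemistry. The authors deposited 1 FPKM table per mouse; per the submitters' processing notes these name cutadapt 1.9, HISAT2 2.0.4, UMI-tools, StringTie 1.3.4d and the build mm9, and the study's methods name fastp and ballgown. Neither the annotation nor the use of strand in assigning fragments is given in the sources used here.

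Identifiers (33643 per library) were matched to GENCODE vM21 names (33541 matched), and where several identifiers had 1 symbol (57 symbols) they were added up. log2(FPKM + 1) was fitted with limma 3.58.1 (R 4.3.3) without covariates, for the genes whose mean reached 1 FPKM, in itself and after subtraction of Cd3e or Cd4; p-values were adjusted by the Benjamini-Hochberg method over all genes. Single genes were tested by two-sided exact permutation (Python 3.11.15). The study names limma and the P and fold thresholds, but no pseudocount, filter or log base. On simulated data, limma recovered 176 of 200 genes changed by 1 on the log2 scale among 13334, with 8 false calls. Smaller changes, such as those of the members, were not simulated. FPKM keeps no read totals, so no count test was run. Replicate p-values set a group difference against the spread between mice.

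The 9 members and all gene lists were chosen with earlier results of these data known. Named genes were the members, Cd3e, Cd4, in each list those called or else that of smallest limma P, and the 5 most like Foxp3, and some genes named by this rule are not reported here. Alternatives were the pseudocount, the filter, rescaling to a sum of 1000000, quantile and median ratio scaling, limma-trend, a replicate block, the replicate set as a term, each library left out, and (chosen after seeing the data) plain ratios and the interaction with the replicate set.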

Additional observations from a re-analysis of the deposited data

Results flagged for a closer look

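Values of the regulatory T cell genes, of Cd3e and of Cd4 made up 58 sets of 5. In 3 sets 1 library was far from the other 4, and chance alone marks about 1 in 20. Ikzf2 per 100 FPKM of Cd3e was 5.80 FPKM in MWA replicate 5, against 8.61 FPKM in the next lowest MWA library. Capg was 76.8 FPKM in MWA+2DG replicate 2, against 65.0 FPKM in the next highest library of its group. Ctla4 per 100 FPKM of Cd4 was 18.8 FPKM in MWA+2DG replicate 4, against 30.4 FPKM in the next lowest, and that library had the highest Cd4 of all 10.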

How the results depend on the processing

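The count of members called in themselves stayed at 0 of 9 except when 1 library was left out (0 to 1). Relative to Cd3e it was 1, and 2 under rescaling to a sum of 1000000, quantile normalization, median ratio scaling, the replicate block and the replicate set as a term, with 0 to 2 when 1 library was left out; the gene gained under these 5 settings was Lrrc32, which without a filter took the place of Capg. Relative to Cd4 it was 1, 0 under a filter of 5 FPKM, which left 4 members and removed Lrrc32, and 2 under the replicate block, with 1 to 3 when 1 library was left out. The replicate number is only a number: the deviations of same-numbered libraries correlated at 0.11 to 0.50 in 4 of 5 pairs and at 0.03 in the other, and 1 of 5 MWA libraries correlated best with its own number. Foxp3 was higher with MWA+2DG in 5 of 5 same-numbered pairs, and under the replicate block its SE was 0.06, with an adjusted p of 0.834 from limma and an unadjusted P under 0.05, short of the fold threshold. All-gene counts were, in themselves, 376 of 13334 genes, 230 of 8052 (2.86%) with the 5 FPKM filter and 283 to 512 with 1 library left out; relative to Cd3e 2503, from 1273 to 5271 with 1 library left out; relative to Cd4 3516, 7766 of 32377 without a filter, and 2022 to 5814 with 1 library left out.

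Fold changes near 0 changed sign. Ctla4 was 0.037 after rescaling and ran from -0.13 to 0.13 with 1 library left out. Izumo1r was -0.0014 under median ratio scaling and ran from -0.18 to 0.12. Leave-one-out ranges were -0.19 to 0.0039 for Capg, -0.024 to 0.19 for Gpr83, -0.0024 to 0.18 for Ikzf2, -0.028 to 0.15 for Nrp1 and, relative to Cd4, -0.15 to 0.0066 for Foxp3. The cause was not tested. Rescaling moved the median of all genes to 0.07. Without MWA replicate 1, Ikzf4 fell below the filter. Depth is unknown, so precision at low levels (Ikzf4, Nrp1) could not be given.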
